A study of Mus musculus with 12 samples.

Results

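The genes described here are 33 genes of the smooth muscle contractile apparatus, read in the prostate of male mice descended from females exposed to chlordecone during pregnancy. They were listed by gene name, with no threshold on a measured value but with earlier results of these data known: actins, myosin chains, tropomyosins, thin filament regulators, the myosin kinase and parts of the phosphatase, desmin and plaque proteins, calcium and cyclic GMP regulators, and Myocd and Srf. All 33 were found among the 28075 genes of the deposited tables, 32 of them in the F1 table of 19091 genes and 33 in the F3 table of 26023 genes. Mrvi1 was not analysed in F1. In the exposed line, pregnant females (F0) received chlordecone, an organochlorine insecticide also called kepone, at 100 µg/kg/day from embryonic day E6.5 to E15.5. Their progeny (F1) were bred on to the third generation (F3). Polyadenylated RNA of the prostate was sequenced in 3 F1 chlordecone libraries, 2 F1 control libraries, 3 F3 chlordecone libraries and 3 F3 control libraries. A further F1 control library is not analysed here. F1 males of the chlordecone group were themselves in the uterus during dosing, whereas F3 males of that group were separated from it by further generations. The labels give no strain, age, lobe of the prostate or vehicle, and do not say whether a sample was 1 animal, a pool or a littermate of another. Every p-value below therefore measures the spread between these samples, which may be in part technical.

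Smooth muscle surrounds the prostatic ducts and contracts to expel secretion. Calcium entering the cell binds calmodulin, which activates myosin light chain kinase, and the phosphorylated light chain lets myosin pull on actin filaments. Myosin phosphatase reverses this step, and cyclic GMP relaxes the cell through its kinase. Actin filaments are anchored at dense bodies inside the cell and at plaques on its membrane, and desmin filaments link them. Most of these genes are known targets of serum response factor, Srf, with its smooth muscle cofactor myocardin, Myocd, which act at a DNA element called the CArG box.

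The promoters are shown first because the CArG box is the best-known shared element of these genes. Its part in the levels below was not tested. A CArG box was searched as CC, then 6 bases that are each A or T, then GG, on both strands, and a CArG-like box as the same with 1 of the 6 middle bases G or C. In the set of RefSeq promoters used (GRCm38.p6), 28 of the 33 genes had an entry. A promoter was taken as 250 bases before and 50 bases after a start site. The set held no entry for Myh11, Actg2, Tagln, Myocd and Nexn, so these genes were not searched. An exact CArG box lay in the promoters of 6 of the 28 genes (21.4%), against 1.81% of 27025 genes with a promoter in the same table. Counting CArG-like boxes as well, 8 of the 28 genes (28.6%) had one, against 11.3% of all genes. The 6 genes with an exact box were Myl9, Myl6, Vcl, Ldb3, Srf and Fhl1, and the others with a CArG-like box were Acta2 and Synm. These matches are descriptions of letters in 1 short window and not binding sites. The 250 bases before the start are given for 4 genes, each 5′ to 3′ on the strand of the gene, with exact and CArG-like boxes in capitals. Acta2 (minus strand, chr19:34255374-34255623) has CArG-like boxes only, Myl9 (plus strand, chr2:156775214-156775463) has an exact one followed by a CArG-like one, Srf (minus strand, chr17:46556163-46556412) has a pair of exact boxes, and Vcl (plus strand, chr14:20929148-20929397) has 1 exact box.
Acta2: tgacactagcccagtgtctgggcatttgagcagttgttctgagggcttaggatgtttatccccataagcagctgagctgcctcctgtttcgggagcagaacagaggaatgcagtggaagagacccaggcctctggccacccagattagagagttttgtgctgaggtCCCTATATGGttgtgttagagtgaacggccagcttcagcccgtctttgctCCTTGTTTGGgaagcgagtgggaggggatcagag
Myl9: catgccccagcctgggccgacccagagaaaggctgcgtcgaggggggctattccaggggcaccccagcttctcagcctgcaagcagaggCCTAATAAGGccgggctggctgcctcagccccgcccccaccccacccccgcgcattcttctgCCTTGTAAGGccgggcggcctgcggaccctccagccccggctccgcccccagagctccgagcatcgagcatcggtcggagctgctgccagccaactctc
Srf: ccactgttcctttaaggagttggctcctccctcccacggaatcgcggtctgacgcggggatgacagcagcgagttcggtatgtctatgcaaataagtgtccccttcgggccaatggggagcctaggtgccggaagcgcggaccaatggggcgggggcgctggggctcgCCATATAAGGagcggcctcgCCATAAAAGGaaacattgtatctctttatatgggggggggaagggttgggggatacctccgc
Vcl: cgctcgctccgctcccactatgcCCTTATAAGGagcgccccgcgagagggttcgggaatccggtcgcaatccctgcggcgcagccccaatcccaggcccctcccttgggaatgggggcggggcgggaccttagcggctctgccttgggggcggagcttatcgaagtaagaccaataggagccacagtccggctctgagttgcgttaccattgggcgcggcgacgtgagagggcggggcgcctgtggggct
The 4 genes differed in their values: Myl9 and Acta2 followed the rest of the list in both generations, whereas Srf and Vcl differed less from their control levels, as given below.

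The libraries held 17228539 to 28061760 counts in F1 and 71672418 to 114762135 counts in F3. Levels are in CPM, a read count scaled to the TMM-adjusted size of its library, and levels from the separately made F1 and F3 tables are set side by side as descriptions only. The 6 defining smooth muscle markers, Acta2, Actg2, Myh11, Cnn1, Tagln and Des, were present in every library. Their summed level was 11656, 4575 and 7343 CPM in F1 chlordecone libraries 1, 2 and 3, against 4018 and 3945 CPM in F1 control libraries 1 and 2. In F3 it was 1579, 2450 and 2351 CPM in the chlordecone libraries, against 1239, 4171 and 3509 CPM in the control libraries. In the sentences that follow, values are always in this library order. Certain libraries stood apart. In F1 the summed level of 5 vas deferens and epididymis markers was 44301, 103 and 13935 CPM in the chlordecone libraries, against 24.6 and 25.8 CPM in the control libraries. Akr1b7 and Crisp1 made up nearly all of these sums. Aqp9 had 35.3, 0 and 11.6 CPM in the chlordecone libraries, against 0 and 0.141 CPM in the control libraries. Lcn5 and Rnase10 were at most 1.27 CPM in every F1 library, and their groups overlapped. The 7 seminal vesicle markers summed to 186926, 430018 and 528588 CPM in F1 chlordecone libraries, against 118395 and 121009 CPM in F1 control libraries. They did not move together: their median log2 ratio to the control mean was -0.47, 1.38 and -0.98 in the chlordecone libraries. Svs2, Svs5 and Pate4 exceeded both controls in every chlordecone library. Svs1, Svs3a, Svs4 and Svs6 did so only in chlordecone library 2 and lay below both controls in libraries 1 and 3. The 9 skeletal muscle markers in the F1 table summed to 602, 248.5 and 478 CPM in F1 chlordecone libraries, against 205 and 198 CPM in F1 control libraries. Acta1, Tnnc2 and Ckm made up most of these sums, and the rest were at most 4.58 CPM in every F1 library. Of that rest, Mylpf, Myh2 and Tnnt3 had a lower mean in chlordecone libraries, and Tnni2, Actn3 and Myh4 a higher one. The 7 pericyte markers, genes of the mural cells of small vessels, summed to 66.9, 34.8 and 67.7 CPM in F1 chlordecone libraries, against 33.6 and 37.1 CPM in F1 control libraries. Both F1 control libraries were close to each other, with a chi-square of 17.0 per gene between their counts, against 282 to 632 for the other F1 pairs. In F3 control library 1 stood apart by its low smooth muscle level. The part of these differences in the results below was not tested. Of the 33 genes, 18 overlap a gene on the other strand and 7 a gene on the same strand in GENCODE M21. These overlaps are of whole genes from start to end, and whether exons overlap was not examined. Smtn, Mylk, Tagln and Pde5a are among these genes. Whether the counting used strand is not stated, so reads from any exon that such a pair shares may not be told apart.

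**Figure D1:**
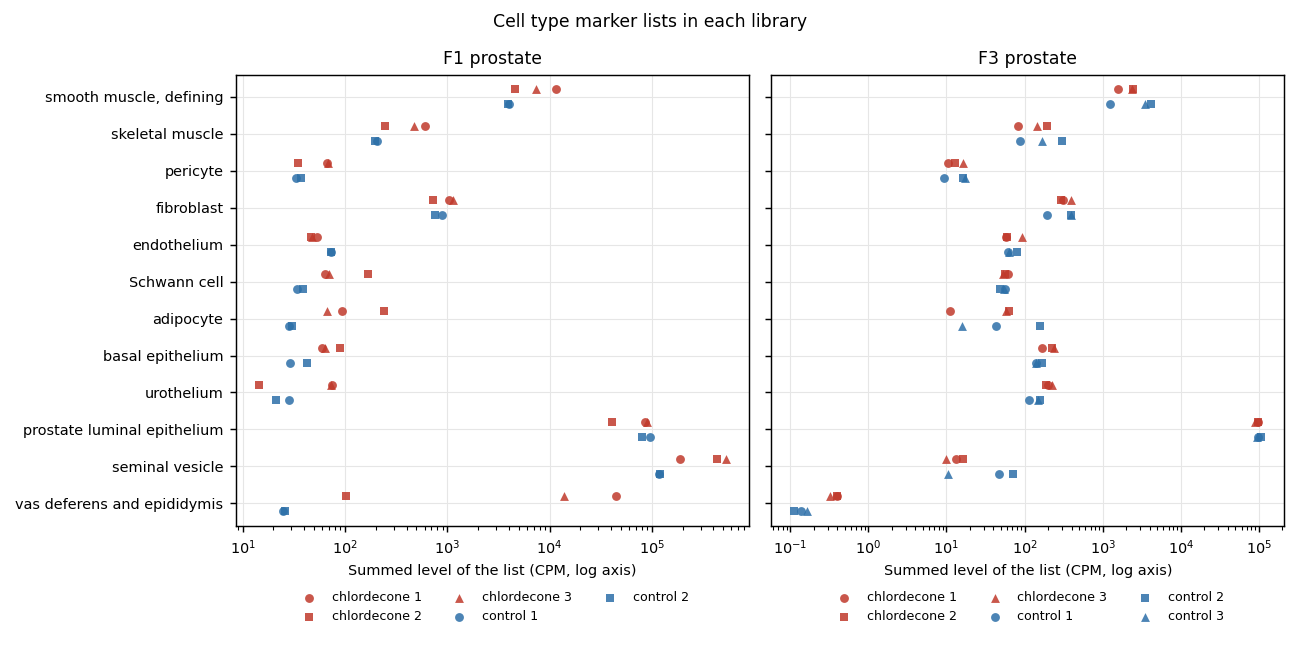
Summed level of cell type marker lists (CPM, log axis) in F1 (left panel) and F3 (right panel), cardiac muscle not drawn. Chlordecone libraries are in red above control libraries in blue. In F1 the defining smooth muscle sum of every chlordecone library lies above 4018 CPM, the higher control, while the vas deferens and epididymis sum spans 103 to 44301 CPM among chlordecone libraries.

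In F1 prostate, most contractile genes had more RNA in the chlordecone libraries than in the control libraries, but no single gene passed the adjusted threshold. Of 32 genes, 30 had a higher level in chlordecone and 2 a lower one (3 with total-count scaling, which put Fhl1 below 0), where 51.4% of all 17804 genes tested were higher. The median log2 fold change of the 32 genes was 0.94, against 0.02 over all genes tested. None of the 32 passed an adjusted p of 0.05 in edgeR's quasi-likelihood test with Benjamini-Hochberg adjustment (0 genes), where 5 of all genes passed (0.0281%). At an unadjusted p under 0.05, 15 genes were higher and 0 lower, where 7.93% of all genes were higher at that p. DESeq2's Wald test called 8 of the 32, all higher, where it called 3.89% of all genes. In 24 of the 32 genes every chlordecone library lay above both control libraries, where 16.2% of all genes did. In whole tissue, a difference in the number of smooth muscle cells and a difference in RNA per cell cannot be told apart. Chlordecone library 1 was the highest library for 28 of the 32 genes, and a control library was the lowest for 28. The median log2 ratio of the genes to the control mean was 1.48, 0.40 and 0.81 in the chlordecone libraries. Without chlordecone library 1 the median log2 fold change was 0.64. Without chlordecone library 2, whose vas deferens and epididymis sum was the lowest of the group, it was 1.18 and 21 of the 32 genes passed the edgeR threshold, as did 2604 genes in all.

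**Figure D2:**
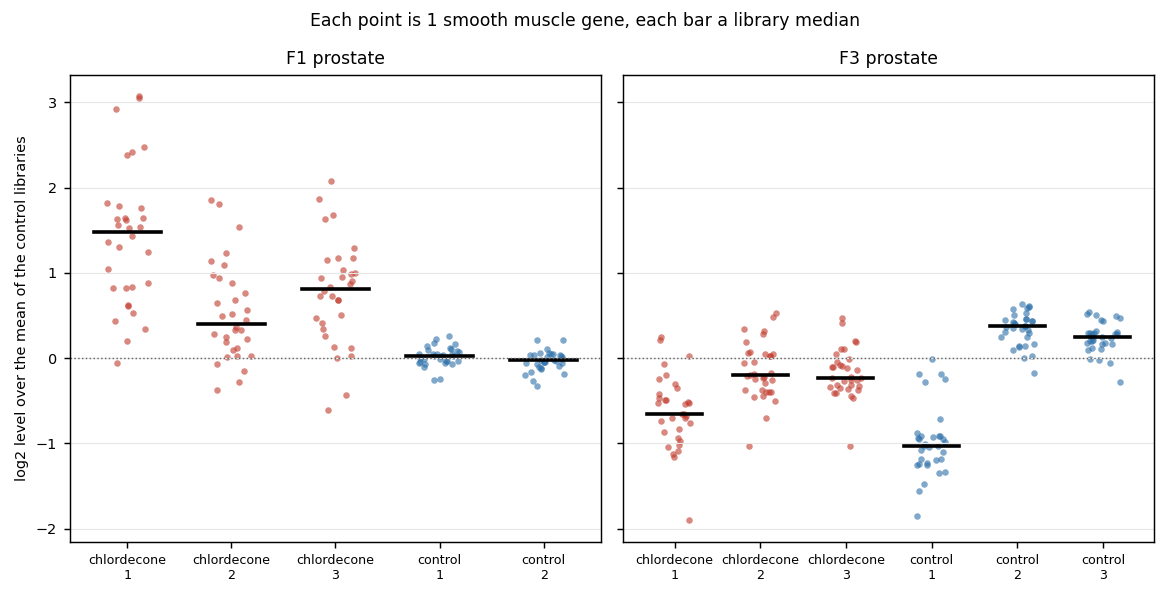
Log2 level of each smooth muscle gene over the mean of the control libraries, by library, in F1 (left panel) and F3 (right panel), chlordecone libraries in red and left of control libraries in blue, with bars at library medians. The F1 chlordecone medians are 1.48, 0.40 and 0.81, and in F3 control library 1 has the lowest median, at -1.02.

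Among the contractile filaments and their motor, all 5 genes were higher in F1 chlordecone libraries, 3 of them at an unadjusted p under 0.05. Myh11, the smooth muscle myosin heavy chain (chr16:14194535-14291372, minus strand, GRCm38), had 955, 335 and 486 CPM in the chlordecone libraries, against 115 and 114 CPM in the control libraries. The lowest chlordecone library stood well above both controls, which were almost equal. For Myh11 the log2 fold change was 2.37 ± 0.49 (SE), a 5.15-fold difference, with an edgeR adjusted p of 0.170 and a DESeq2 adjusted p of 1.18e-05. Acta2, smooth muscle alpha-actin, had 1324, 581 and 789 CPM in chlordecone libraries, against 509 and 474 CPM in control libraries. Actg2, the enteric smooth muscle gamma-actin, had 789, 364 and 488 CPM in chlordecone libraries, against 260 and 275 CPM in control libraries. The groups did not overlap for either actin, and chlordecone library 2 was the nearest to the controls in both. The log2 fold changes were 0.87 ± 0.41 (edgeR adjusted p = 0.464) for Acta2 and 1.03 ± 0.39 (edgeR adjusted p = 0.370) for Actg2. Myl9, the regulatory light chain that the kinase phosphorylates, averaged 358 ± 137 CPM in chlordecone libraries (SD, n = 3) and 166 ± 7.76 CPM in control libraries (SD, n = 2). Myl6, the essential light chain, had 2625, 1152 and 2110 CPM in chlordecone libraries, against 1232 and 1320 CPM in control libraries. Its groups overlapped, and 18.5% of the 50-base windows in its longest coding transcript recur in other gene models, all with Gm numbers, so its counts are uncertain.

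The thin filament regulators were all higher as well, 7 of 7, and 5 of them did not overlap between groups. Smtn, smoothelin, an actin-binding protein of contractile smooth muscle (chr11:3517523-3540612, minus strand, GRCm38), had 86.4, 58.5 and 51.8 CPM in chlordecone libraries, against 15.7 and 16.6 CPM in control libraries. All 3 chlordecone libraries were far above both controls. For Smtn the log2 fold change was 2.02 ± 0.32 (SE), 4.05-fold, and its edgeR adjusted p of 0.114 was the lowest of the 32 genes. Cnn1, calponin, which binds actin and slows myosin, had 2084, 834 and 1247 CPM in chlordecone libraries, against 660 and 671 CPM in control libraries. Tagln, transgelin or SM22-alpha, an actin-bundling protein, had 5225, 1565 and 3628 CPM in chlordecone libraries, against 2075 and 1994 CPM in control libraries. Cnn1 did not overlap between groups, but for Tagln chlordecone library 2 was the lowest of all 5 libraries. The log2 fold changes were 1.06 ± 0.44 for Cnn1 (edgeR adjusted p = 0.410) and 0.77 ± 0.52 for Tagln (edgeR adjusted p = 0.629). Lmod1, leiomodin, which starts new actin filaments, averaged 119 ± 42.5 CPM in chlordecone libraries (SD, n = 3) and 56.6 ± 9.64 CPM in control libraries (SD, n = 2). The tropomyosins, which lie along actin, had smaller differences, with log2 fold changes of 0.97 for Tpm1 and 0.47 for Tpm2. Cald1, caldesmon, which blocks myosin on actin, had a log2 fold change of 0.72.

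The kinase and a phosphatase subunit were higher, while the phosphatase inhibitor was not. Mylk, myosin light chain kinase, had 1847, 1262 and 1072 CPM in chlordecone libraries, against 563 and 512 CPM in control libraries. Ppp1r12b, a myosin-targeting subunit of the phosphatase, had 198, 50.03 and 95.5 CPM in chlordecone libraries, against 24.1 and 28.0 CPM in control libraries. Neither gene overlapped between groups, and Ppp1r12b varied 3.96-fold among the chlordecone libraries. For Mylk the log2 fold change was 1.37 ± 0.37 (edgeR adjusted p = 0.237), and for Ppp1r12b it was 2.14 ± 0.55 (edgeR adjusted p = 0.229). Ppp1r14a, the inhibitor CPI-17 that holds the phosphatase off, had 32.8, 23.5 and 18.7 CPM in chlordecone libraries, against 31.4 and 25.5 CPM in control libraries. Its groups overlapped, and its log2 fold change was -0.19 ± 0.31 (edgeR adjusted p = 0.867).

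Of the 11 genes of intermediate filaments, dense bodies and plaques, all were higher in F1 chlordecone libraries and 9 did not overlap. Des, desmin, the intermediate filament of muscle, had 1279, 897 and 705 CPM in chlordecone libraries, against 399 and 417 CPM in control libraries. Flna, filamin A, which crosslinks actin and is widely expressed, had 558, 269 and 324 CPM in chlordecone libraries, against 164 and 152 CPM in control libraries. Pgm5, a plaque protein without enzyme activity, had 428, 197 and 280 CPM in chlordecone libraries, against 128 and 125 CPM in control libraries. In all 3 genes each chlordecone library exceeded both controls. Their log2 fold changes were 1.24 ± 0.36 for Des (edgeR adjusted p = 0.270), 1.28 ± 0.38 for Flna (edgeR adjusted p = 0.280) and 1.26 ± 0.38 for Pgm5 (edgeR adjusted p = 0.280). Ldb3, a Z-disc protein first known in striated muscle, had 16.6, 3.82 and 7.13 CPM in chlordecone libraries, against 3.35 and 2.86 CPM in control libraries. Chlordecone library 1 alone lay far from the rest, and the log2 fold change was 1.57 ± 0.65 (edgeR adjusted p = 0.414). Vcl, vinculin, which ties actin to integrin plaques, had 96.6, 55.3 and 77.9 CPM in chlordecone libraries, against 54.4 and 55.2 CPM in control libraries. For vinculin chlordecone library 2 was almost equal to the controls, and the log2 fold change was 0.48 ± 0.30 (edgeR adjusted p = 0.601). Csrp1, a LIM protein of actin bundles, and Synm, the desmin partner synemin, had log2 fold changes of 1.15 and 0.89. The rest lay between 0.24 for Fhl1, a LIM protein of muscle, and 0.72 for Synpo2, an actin-bundling plaque protein, with Nexn, a filament-binding protein, at 0.56 and Actn1, the dense body crosslinker alpha-actinin, at 0.35.

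Among the calcium, cyclic GMP and caveolar genes, the largest difference was in Pde5a, the phosphodiesterase that breaks down cyclic GMP. Pde5a had 25.6, 16.1 and 14.2 CPM in chlordecone libraries, against 3.77 and 5.25 CPM in control libraries. The groups were clearly separate, and the log2 fold change was 2.04 ± 0.40 (edgeR adjusted p = 0.170, DESeq2 adjusted p = 0.000640). Prkg1, the cyclic GMP-dependent kinase, averaged 4.86 ± 0.704 CPM in chlordecone libraries (SD, n = 3) and 5.51 ± 1.03 CPM in control libraries (SD, n = 2), with overlap. Pln, phospholamban, the brake on the calcium pump of the reticulum, had a log2 fold change of 0.91 ± 0.57 at a level under 5 CPM. Cav1, caveolin, which coats membrane pits of muscle and of endothelium, had a log2 fold change of 0.37 ± 0.28. The 8 endothelial markers summed to 53.0, 46.3 and 48.1 CPM in chlordecone libraries, against 73.3 and 73.7 CPM in control libraries. They did not all go the same way: 6 were lower and 2 higher. Emcn and Cldn5 lay below both controls in every chlordecone library, Esam lay above both, and the groups overlapped for the rest. Of the transcription genes, Myocd averaged 4.10 ± 4.16 CPM in chlordecone libraries (SD, n = 3) and 0.963 ± 0.029 CPM in control libraries (SD, n = 2). The Myocd mean rested on chlordecone library 1, and its log2 fold change was 2.09 ± 0.98 (edgeR adjusted p = 0.464). Srf averaged 32.9 ± 7.41 CPM in chlordecone libraries (SD, n = 3) and 25.4 ± 5.59 CPM in control libraries (SD, n = 2), with overlap.

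**Figure D3:**
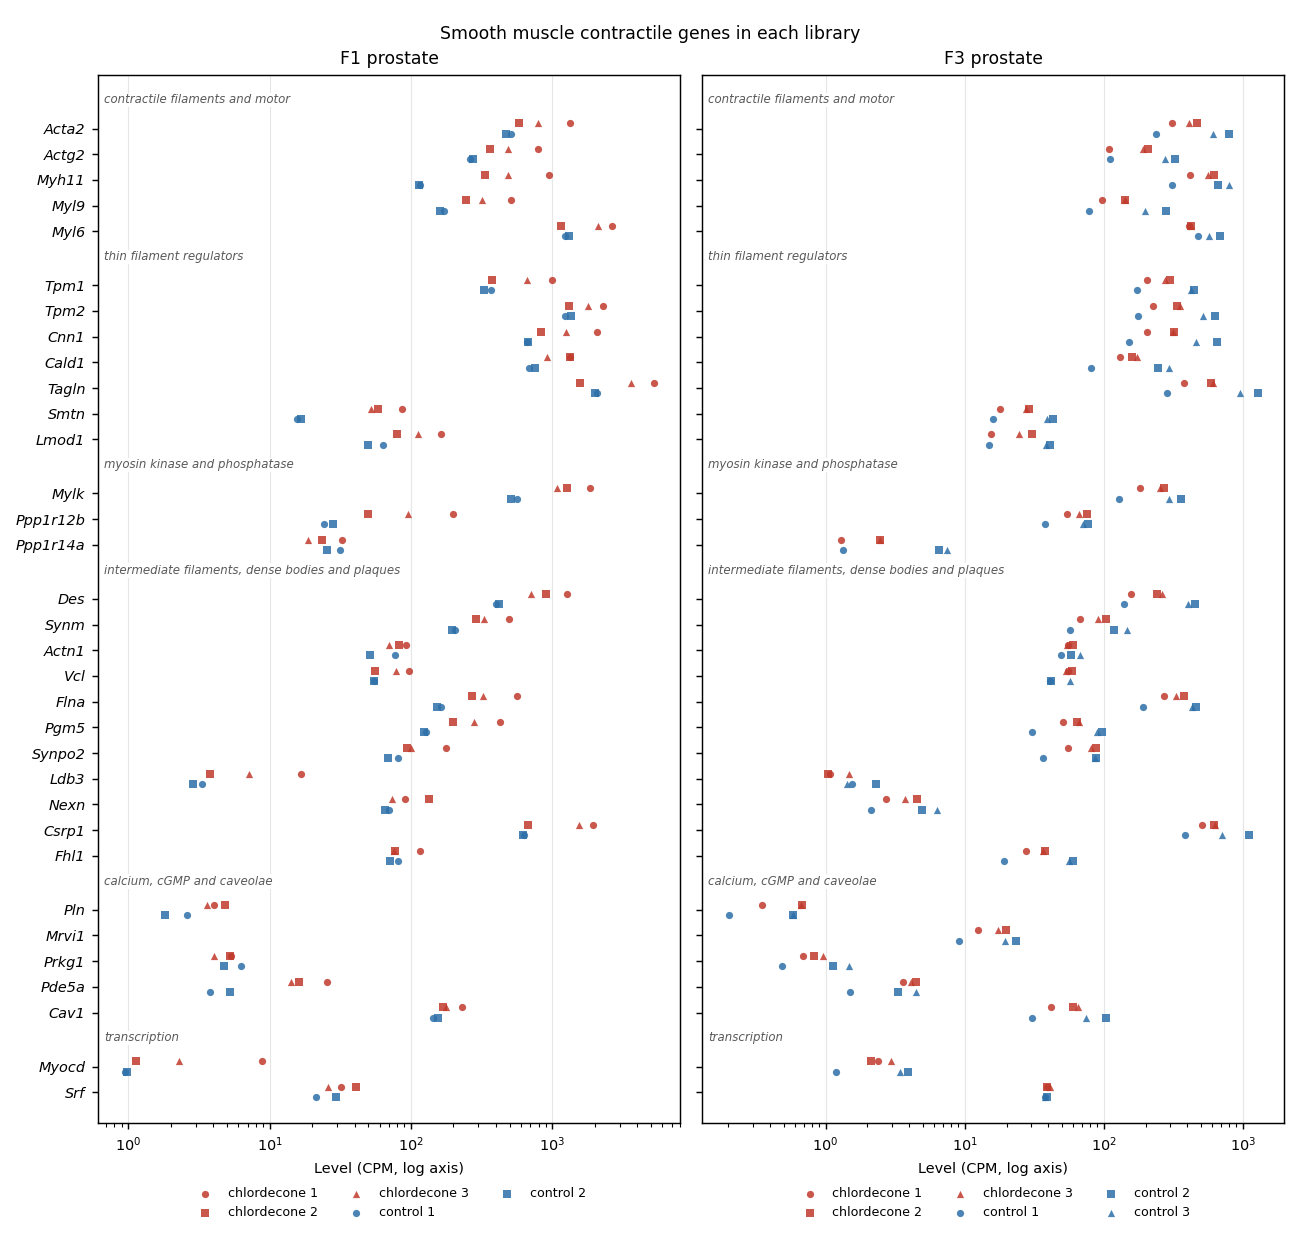
Level of each smooth muscle gene (CPM, log axis) in every F1 library (left panel) and F3 library (right panel), by role, with chlordecone libraries in red just above control libraries in blue. In F1 the red marks lie right of the blue ones for 24 of 32 genes, as for Smtn at 51.8 to 86.4 against 15.7 to 16.6 CPM, while in F3 the groups overlap for every gene except Myl6.

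In F3 prostate the same genes leaned the other way and by less, and no gene passed the adjusted threshold. Of 33 genes, 27 had a lower level in chlordecone and 6 a higher one, where 51.2% of all 16766 genes tested were lower. The median log2 fold change of the 33 genes was -0.33, against -0.01 over all genes tested. None passed edgeR's adjusted threshold (0 genes, where 0.0596% of all genes passed), and DESeq2 called 0 as well, where it called 1.28% of all genes. At an unadjusted p under 0.05, 2 genes were lower and 0 higher, where 5.64% of all genes were lower at that p. Groups did not overlap in 1 gene, Myl6, lower in chlordecone, where 8.25% of all genes did so.

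The F3 control libraries differed from each other more than the groups did. Control library 1 was the lowest library for 28 of the 33 genes and control library 2 the highest for 22. The median log2 ratio to the control mean was -0.66, -0.20 and -0.24 in the chlordecone libraries, against -1.02, 0.37 and 0.25 in the control libraries. The members took 0.407%, 0.574% and 0.576% of all counts in chlordecone libraries, against 0.315%, 0.909% and 0.815% in control libraries. Without control library 1 the median log2 fold change was -0.63, and 0 of the genes passed the adjusted threshold in edgeR, where 41 of all 17338 genes did. Without control library 2 the median was -0.13, and without control library 3 it was -0.08, with 21 genes lower and 12 higher in each case. The chlordecone medians lay below those of control libraries 2 and 3 and above that of control library 1. Skeletal muscle markers varied alongside: their sum was 83.3, 196 and 146 CPM in F3 chlordecone libraries, against 86.8, 306 and 166 CPM in F3 control libraries, mostly from Acta1, the skeletal actin. Of the 10 skeletal muscle markers, Tnnc2, a troponin, had 3.33, 5.38 and 6.57 CPM in F3 chlordecone libraries, against 2.95, 12.8 and 10.5 CPM in F3 control libraries. Ckm, the muscle creatine kinase, had 3.48, 7.31 and 8.40 CPM in chlordecone libraries, against 3.01, 11.5 and 6.96 CPM in control libraries. In both, as in most contractile genes, control library 1 was the lowest and control library 2 the highest. Mylpf and Actn3 were at most 2.71 CPM in every F3 library, and Myh1, Myh2, Myh4, Tnnt3 and Tnni2 at most 0.127 CPM. The part of skeletal muscle in these levels was not tested.

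The filaments and motor gave the single non-overlapping gene. Myl6 had 411, 424 and 427 CPM in F3 chlordecone libraries, against 475, 688 and 573 CPM in F3 control libraries. Its chlordecone libraries were nearly equal, and all lay below the lowest control. For Myl6 the log2 fold change was -0.46 ± 0.16 (edgeR adjusted p = 0.421), with the same uncertainty of its counts as in F1. Acta2 had 309, 469 and 414 CPM in chlordecone libraries, against 240, 794 and 615 CPM in control libraries. Myh11 had 421, 619 and 558 CPM in chlordecone libraries, against 310, 660 and 797 CPM in control libraries. In both genes the chlordecone values lay inside the range of the controls. The log2 fold changes were -0.47 ± 0.38 for Acta2 (edgeR adjusted p = 0.648) and -0.15 ± 0.32 for Myh11 (edgeR adjusted p = 0.877). Actg2 had 109, 207 and 191 CPM in chlordecone libraries, against 111, 326 and 275 CPM in control libraries. Myl9 had 96.8, 143 and 143 CPM in chlordecone libraries, against 77.8, 279 and 199 CPM in control libraries. For both, chlordecone library 1 and control library 1 were the low ones, and the log2 fold changes were -0.49 for Actg2 and -0.54 for Myl9.

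All 7 thin filament regulators were lower in F3 chlordecone libraries, none at an unadjusted p under 0.05. Tagln had 379, 593 and 611 CPM in chlordecone libraries, against 287, 1286 and 957 CPM in control libraries. Cnn1 had 205, 319 and 317 CPM in chlordecone libraries, against 151, 652 and 458 CPM in control libraries. Tpm2, beta-tropomyosin, had 225, 337 and 353 CPM in chlordecone libraries, against 175, 630 and 521 CPM in control libraries. Each showed the same order, with control library 1 lowest and control library 2 highest. The log2 fold changes were -0.68 ± 0.47 for Tagln (edgeR adjusted p = 0.596), -0.58 ± 0.45 for Cnn1 (edgeR adjusted p = 0.633) and -0.54 ± 0.41 for Tpm2 (edgeR adjusted p = 0.633). Smtn, the gene with the smallest p in F1, had 18.0, 29.1 and 27.8 CPM in F3 chlordecone libraries, against 15.9, 43.5 and 39.1 CPM in F3 control libraries. Its log2 fold change was -0.40 ± 0.35 (edgeR adjusted p = 0.675). Tpm1, Cald1 and Lmod1 had log2 fold changes between -0.43 and -0.42.

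Ppp1r14a, the phosphatase inhibitor, had the most negative F3 value. It had 1.29, 2.45 and 2.45 CPM in chlordecone libraries, against 1.34, 6.49 and 7.49 CPM in control libraries. Control library 1 lay among the chlordecone libraries, so the groups overlapped. The log2 fold change was -1.31 ± 0.57 (edgeR adjusted p = 0.470). Mylk had 182, 269 and 253 CPM in chlordecone libraries, against 128, 359 and 296 CPM in control libraries, with a log2 fold change of -0.15 ± 0.34. Ppp1r12b had 54.3, 75.6 and 66.8 CPM in chlordecone libraries, against 37.9, 77.1 and 71.3 CPM in control libraries, with a log2 fold change of 0.08 ± 0.26. Neither kinase nor targeting subunit differed beyond the spread of the controls.

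Among anchoring genes, 9 of 11 were lower in F3 chlordecone libraries, and Vcl and Synpo2 were higher. Des had 156, 242 and 261 CPM in chlordecone libraries, against 141, 452 and 407 CPM in control libraries. Ldb3 had 1.07, 1.05 and 1.46 CPM in chlordecone libraries, against 1.54, 2.32 and 1.44 CPM in control libraries. Vcl had 55.7, 59.2 and 53.6 CPM in chlordecone libraries, against 41.3, 41.6 and 57.6 CPM in control libraries. For Des control library 1 was the lowest of all, for Ldb3 1 chlordecone library lay within the controls, and for Vcl control library 3 did not share the low level of the other controls. The log2 fold changes were -0.60 ± 0.40 for Des (edgeR adjusted p = 0.581), -0.56 ± 0.29 for Ldb3 (edgeR adjusted p = 0.514) and 0.26 ± 0.15 for Vcl (edgeR adjusted p = 0.549). Flna had 272, 380 and 334 CPM in chlordecone libraries, against 193, 464 and 432 CPM in control libraries. Pgm5 had 50.9, 64.1 and 66.0 CPM in chlordecone libraries, against 30.3, 97.6 and 89.9 CPM in control libraries. In both genes the chlordecone values lay within the control range. The remaining genes, Synm, Actn1, Synpo2, Nexn, Csrp1 and Fhl1, had log2 fold changes between -0.41 and 0.08, Fhl1 being the lowest and Synpo2 the highest.

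Regulators of calcium and cyclic GMP were mixed in F3. Pde5a had 3.58, 4.47 and 4.13 CPM in chlordecone libraries, against 1.502, 3.295 and 4.43 CPM in control libraries. Its log2 fold change was 0.40 ± 0.36 (edgeR adjusted p = 0.679), the highest of the 33 genes. Mrvi1, the target of the cyclic GMP kinase at the calcium store, averaged 16.6 ± 3.76 CPM in chlordecone libraries and 17.4 ± 7.40 CPM in control libraries (SD, n = 3 each). Pln, Prkg1 and Cav1 had log2 fold changes of 0.31, -0.33 and -0.32, each smaller than its SE. Srf was the steadiest gene of the list, with 39.0, 38.9 and 41.3 CPM in chlordecone libraries, against 38.0, 39.0 and 37.7 CPM in control libraries. It did not follow the low level of control library 1 that most of the genes shared, and its log2 fold change was 0.06 ± 0.11. Myocd, its cofactor, averaged 2.48 ± 0.413 CPM in chlordecone libraries and 2.83 ± 1.44 CPM in control libraries (SD, n = 3 each).

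The difference between generations was tested directly, as the F3 effect minus the F1 effect in 1 fit of all 11 libraries over 16980 genes. The difference was below 0 for all 32 genes measured in both (30 with total-count scaling, which put Prkg1 and Vcl above 0), where 51.7% of all genes were below 0, and the median was -1.32, against -0.04 over all genes. At an unadjusted p under 0.05, 19 genes were below 0, where 9.91% of all genes were. None passed edgeR's adjusted threshold (0 genes, where 0.718% of all genes passed), and DESeq2 called 5, where it called 6.9% of all genes. Smtn came nearest, at -2.33 ± 0.49 with an edgeR adjusted p of 0.0522. Myh11 followed at -2.42 ± 0.57 (edgeR adjusted p = 0.0638), then Ppp1r12b at -1.97 ± 0.58 (edgeR adjusted p = 0.115) and Des at -1.76 ± 0.55 (edgeR adjusted p = 0.130). The smallest differences were those of Prkg1 at -0.07 ± 0.62, Vcl at -0.14 ± 0.30 and Srf at -0.25 ± 0.30. Leaving out F1 chlordecone library 2 took the number past the threshold to 7, where 2320 of all 16859 genes passed. Leaving out F3 control library 1 took it to 3, where 130 of all 16935 genes passed. The 24 genes higher in F1 and lower in F3 compare with 6 higher in both and 2 lower in both.

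**Figure D4:**
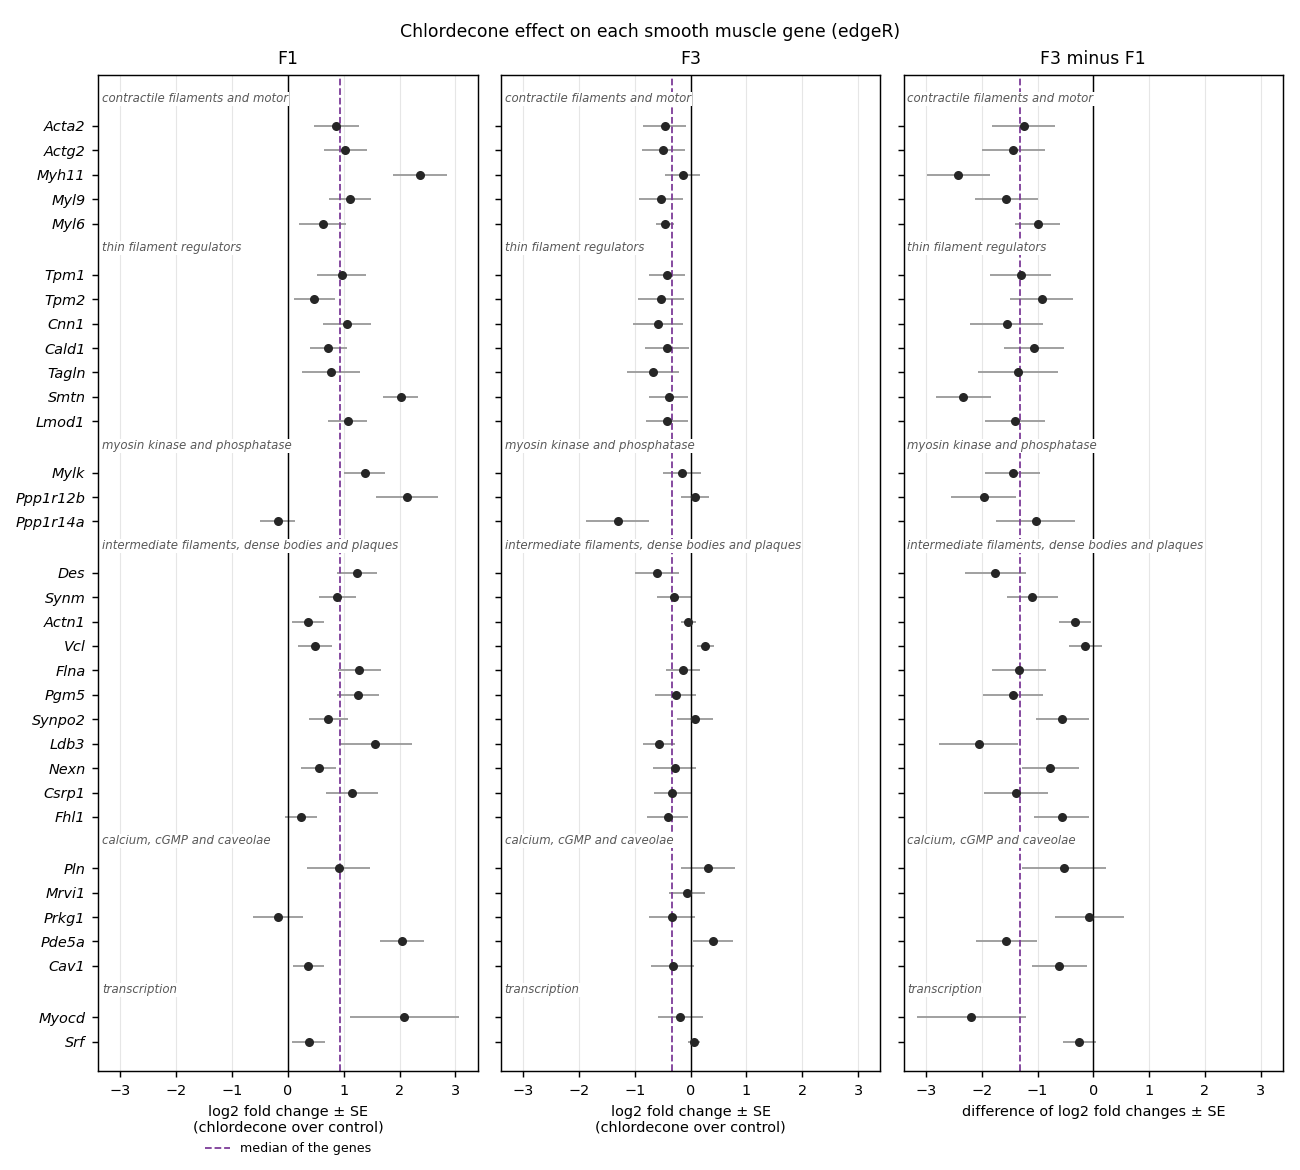
Log2 fold change of each smooth muscle gene for chlordecone over control in F1 and F3, and their difference, F3 minus F1, with bars for the SE, a solid line at 0 and a dashed line at the median of the genes. The medians are 0.94, -0.33 and -1.32, and Myh11, at 2.37, and Ppp1r12b, at 2.14, lie furthest from 0 in F1.

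The proportions of the genes within a library also differed. Of the summed level of all members, Myh11 made up 3.03 ± 0.552% in F1 chlordecone libraries (SD, n = 3) and 1.138 ± 0.005% in F1 control libraries (SD, n = 2). In F3 it made up 10.3 ± 0.372% in chlordecone libraries and 8.92 ± 1.59% in control libraries (SD, n = 3 each). Tagln, the most abundant gene per length in both F1 groups, had 1747 CPM per kb of exon in F1 chlordecone libraries and 1023 CPM per kb in F1 control libraries. In F3 Tagln stood at 265 CPM per kb in chlordecone libraries, below Csrp1 at 299.6 CPM per kb, and at 424 CPM per kb in control libraries. Prkg1 was the least abundant per length among the chlordecone libraries of both generations, at 0.448 CPM per kb in F1 and 0.0755 CPM per kb in F3. The members together took 2.59%, 1.29% and 1.36% of counts in F1 chlordecone libraries, against 1.12% and 1.15% in F1 control libraries.

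Other genes of the contraction pathway were read from lists chosen by function. In the F1 comparison, of 22 further cytoskeletal and membrane genes of smooth muscle, 20 were higher, with a median log2 fold change of 0.95. Of these, 10 were higher at an unadjusted p under 0.05, 5 in DESeq2 and 0 past the edgeR adjusted threshold. Over all genes in F1, 51.4% were higher, 7.93% were higher at that p, DESeq2 called 3.89% and edgeR 0.0281%. Tns1, tensin, had 504, 238 and 185 CPM in chlordecone libraries, against 76.8 and 74.7 CPM in control libraries (log2 fold change 2.03, edgeR adjusted p = 0.201). Pdlim7 had 98.4, 47.5 and 58.9 CPM in chlordecone libraries, against 21.7 and 19.9 CPM in control libraries (log2 fold change 1.71, edgeR adjusted p = 0.180). In F3 the same list had 8 genes higher and 14 lower, with a median of -0.10, where 51.2% of all genes were lower. At an unadjusted p under 0.05 it had 0 genes, where 5.64% of all genes were lower at that p. Its smallest p-values were those of Pdlim5 (log2 fold change 0.24) and Itga5 (-0.71). Srf and myocardin cofactors and repressors showed no lean, with 3 of 8 higher in each generation and medians of -0.04 in F1 and -0.09 in F3. In that list the smallest p-values were those of Mkl2 (-0.68) and Foxo4 (0.58) in F1, and of Mkl2 (0.45) and Hand2 (-0.69) in F3.

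Calcium and potassium handling held a gene that was lower in both generations. Kcnma1, the pore of the large calcium-activated potassium channel, had 43.2, 55.9 and 58.6 CPM in F1 chlordecone libraries, against 125 and 134 CPM in F1 control libraries. In F3 Kcnma1 had 25.9, 20.7 and 24.7 CPM in chlordecone libraries, against 54.9, 32.6 and 48.0 CPM in control libraries. The groups did not overlap in either generation. Its log2 fold changes were -1.30 ± 0.26 in F1 (edgeR adjusted p = 0.170) and -0.93 ± 0.20 in F3 (edgeR adjusted p = 0.300), with DESeq2 adjusted p-values of 0.000293 and 0.00642. Jph2, junctophilin, had a log2 fold change of 1.63 in F1, and Orai1, a calcium entry channel, one of -0.40 in F3. The other receptors and cyclic nucleotide genes were mixed, with 10 of 14 higher in F1 and 5 of 15 higher in F3. Of all genes, 51.4% were higher in F1 and 51.2% lower in F3. Agtr1a, an angiotensin II receptor, had 4.51, 4.80 and 6.72 CPM in F1 chlordecone libraries, against 9.06 and 10.6 CPM in F1 control libraries. In F3 Agtr1a had 16.4, 12.8 and 11.8 CPM in chlordecone libraries, against 7.48, 7.25 and 7.09 CPM in control libraries. The sign of its difference turned between generations, and it was the one pathway gene whose difference passed the edgeR threshold (1.86 ± 0.36, edgeR adjusted p = 0.0396). Gucy1a1, a subunit of the nitric oxide receptor, had a log2 fold change of 1.35 in F1, and Tacr2, a neurokinin receptor, one of -1.09 in F3.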

How the data were processed

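Messenger RNA of mouse prostate was sequenced. For F1 and for F3 the authors deposited a table of raw counts of reads in each gene. The build is mm10, and the tools named are DESeq2 (version 1.6.3), HTSeq (version 0.6.1), Bowtie2 (version 2.1.0), TopHat2 (version 2.0.14) and bcl2fastq (version 2.17.1.14), per the submitters' processing notes. Neither the annotation release nor the strand setting is given there. The authors' own fold changes were not used. A column name starting with C was taken for control and one starting with K for kepone, another name of chlordecone, and 0 columns of other samples were found. Of 12 labelled samples 11 were analysed; F1 control 3 is not analysed here, which left 2 F1 controls where 3 were planned.

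Genes were matched by symbol. Coordinates, exon lengths and overlaps come from GENCODE M21 (GRCm38), since positions in the F1 table differed from it, and promoters from RefSeq. Counts were tested per generation, two-sided, with edgeR 4.0.16 in R 4.3.3: filterByExpr (minimum count 10, minimum total 15), TMM scaling, quasi-likelihood F test, Benjamini-Hochberg adjustment over all genes tested and a threshold of 0.05. The SE is the log2 fold change divided by the square root of F. The difference between generations used 1 fit of the genes in both tables (17039, of which 16980 passed the filter). DESeq2 1.42.0, other scalings, other filters, a replicate block and leaving out each library were the alternatives. Library log2 ratios used a pseudocount of 0.1 CPM. With 2 or 3 libraries a group, the spread between libraries and not depth limits precision.

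The members and all gene lists were chosen with earlier results of these data known. All 33 members were accounted for by role. Values in every library were given for the 6 defining markers, the 8 members with the smallest unadjusted p in each generation and the 4 with the smallest p for the difference. Of pathway genes outside the members, those past the threshold were named, and otherwise the 2 of each list with the smallest p. The result of 1 pathway list is not reported here.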

Additional observations from a re-analysis of the deposited data

Results flagged for a closer look

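A pair of genes outside the contractile list, among the pathway and marker genes read here, had a difference between chlordecone and control that itself differed between generations past the edgeR adjusted threshold (Benjamini-Hochberg over 16980 genes). For Agtr1a, the angiotensin II receptor, the F3 minus F1 difference was 1.86 ± 0.36 on the log2 scale (adjusted p = 0.0396), with log2 fold changes of 0.91 in F3 and -0.88 in F1. For Krt14, a keratin of basal epithelial cells, it was -2.28 ± 0.42 (adjusted p = 0.0291). Krt14 had 4.87, 5.94 and 7.64 CPM in F1 chlordecone libraries, against 1.36 and 0.749 CPM in F1 control libraries, and 18.9, 27.6 and 30.8 CPM in F3 chlordecone libraries, against 22.2, 23.9 and 20.6 CPM in F3 control libraries.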

How the results depend on the processing

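In F1 the number of members past the adjusted threshold was 0 in the reported fit and in 3 other scalings and 2 other filters. It was 8 with DESeq2's Wald test, where 700 of all genes passed. It was 4 in 1 fit of all libraries (930 of all 16980 genes) and 4 with the replicate block (322 of all 17804 genes). With 1 chlordecone library left out it was 0 to 21, 21 being without chlordecone 2 (2604 of all 17394 genes). The F1 median log2 fold change ran from 0.64 to 1.18 over libraries left out. Scaling by total counts without TMM moved the median of all F1 genes by -0.27, and the members' median relative to all genes was then 0.92, against 0.91 in the reported fit; Fhl1 then turned below 0. In F3 the number was 0 in every alternative run, and the median ran from -0.63 without control 1 to -0.0839 without control 3. Leaving out 1 library took the F3 log2 fold changes of 13 members across 0, and the tally of 27 lower and 6 higher became 21 and 12 without control 2 or control 3 and 30 and 3 without control 1. Among the members named with values in every library these were Myh11 (-0.45 to 0.14), Mylk (-0.48 to 0.13), Ppp1r12b (-0.18 to 0.25) and Flna (-0.44 to 0.062). For the difference between generations the number was 0 in the reported fit, where 122 of all genes passed. It was 5 with DESeq2 (1150 of all genes) and 2 with total counts without the 20 most abundant genes (213 of all genes). It was 1 with a mean of at least 1 CPM (192 of all genes) and 1 with the replicate block (49 of all genes). With 1 library other than an F1 control left out it was 0 to 7, 7 being without F1 chlordecone 2 (2320 of all genes). The difference for Vcl turned above 0 with total counts (0.0516), as did that for Prkg1, and ranged from -0.28 to 0.0654 with 1 library left out. The cause of these changes was not tested. Same-numbered libraries did not deviate together (F3 correlations of 0.207, -0.077 and -0.072), so the numbers were not taken as pairs. With a lone control in F1, that library is assumed to vary like the others.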

Other observations

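In F1 certain marker lists were highest in another library than the contractile genes, and others were not. The adipocyte list summed to 94.3, 244 and 66.8 CPM in F1 chlordecone libraries 1, 2 and 3, against 28.6 and 30.1 CPM in F1 control libraries 1 and 2, and its highest library was chlordecone 2, where the contractile genes were closest to the controls. The Schwann cell list also had its highest sum in chlordecone 2, with 64.0, 170 and 69.6 CPM in chlordecone libraries, against 34.3 and 38.9 CPM in control libraries. The urothelial list summed to 74.2, 14.6 and 73.5 CPM in chlordecone libraries, against 28.6 and 20.99 CPM in control libraries. In F3 the uroplakin Upk1a, a protein of the bladder lining, had 14.6, 20.2 and 14.9 CPM in chlordecone libraries, against 3.52, 2.23 and 3.24 CPM in control libraries. Upk1a rose with a log2 fold change of 2.46 and an edgeR adjusted p of 0.0102 (Benjamini-Hochberg), in libraries where the contractile genes did not pass the threshold.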
